A study of Mus musculus with 18 samples.

Results

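The step at which pyruvate enters the mitochondrion was followed through 9 genes in mouse stem cells kept in normoxia or hypoxia. The genes were selected by symbol, and earlier results of these data were known when they were chosen. They were the pyruvate dehydrogenase kinases Pdk1, Pdk2 and Pdk3, the phosphatase Pdp1, the pyruvate dehydrogenase complex subunits Pdha1, Pdhb and Dlat, and the carrier subunits Mpc1 and Mpc2. All 9 were found in each of the 3 expression tables, among 14804 genes listed in any of them, and all 9 had enough expression to be tested in every cell type. The study grew wild-type E14 ESCs (a model of the epiblast, kept without feeders on gelatin), TSCs (a model of the trophectoderm, kept on feeder cells) and XEN cells (a model of the primitive endoderm, kept on gelatin in a medium partly conditioned by fibroblasts). Normoxic cells had 20% O2, and hypoxic cells had 2% O2 for 2 days (acute) or 7 days (prolonged). Each of the 9 groups had 2 biological replicates, which makes 18 bulk RNA-seq libraries. The labels name a cell line for the ESCs only.

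Pyruvate made by glycolysis in the cytosol crosses the inner mitochondrial membrane through the mitochondrial pyruvate carrier, a pair of MPC1 and MPC2. In the matrix the pyruvate dehydrogenase complex turns it into acetyl-CoA, the fuel of the tricarboxylic acid (TCA) cycle. PDHA1 and PDHB form the E1 enzyme, which removes carbon dioxide, and DLAT is the E2 core, which passes the acetyl group to coenzyme A. The PDK kinases phosphorylate E1 and switch the complex off, and the PDP phosphatases switch it back on. Pdk1 is a textbook target of the hypoxia-inducible factor HIF1, and its rise in low oxygen is known to divert pyruvate towards lactate.

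From the deposited values, 35592641 to 75204029 reads per library were recovered, and a member had 40 to 16036 reads in a library. Each line held its own markers in every library, with all 6 markers of each list present. The summed level of the ESC markers, which include Pou5f1 and Nanog, was 4495 to 5019 TPM (transcripts per 1000000) in ESCs, and that of the XEN markers, led by Sox17, was 1979 to 2486 TPM in XEN cells. The TSC markers, which include Cdx2 and Eomes, summed to 1087 and 1078 TPM in normoxic TSCs, to 894 and 1185 TPM on day 2 and to 720 and 638 TPM on day 7 of hypoxia. Some listed markers went the other way. Klf4, an ESC marker, was at 623 to 1193 TPM in XEN cells and 326 to 442 TPM in ESCs. Esrrb, on the ESC and TSC lists, was at 39.1 to 45.5 TPM in ESCs and 5.64 to 28.2 TPM in TSCs. Over the TSC libraries, Cdx2 ran from 35.1 to 169 TPM, Eomes from 104 to 469 TPM and Tfap2c from 383 to 488 TPM. TSC libraries also differed in markers of fibroblasts, the cell type of feeders. All 7 of these markers were listed, none at 0, and their sum was 1842 and 259 TPM in normoxia, 195 and 946 TPM on day 2 and 423 and 253 TPM on day 7. In a bulk library, fewer cells of a type and less RNA per cell cannot be told apart. Markers of differentiated trophoblast, 5 of 6 of them listed, summed to 242 TPM in the normoxic TSC replicate 2 and to 16.3 to 35.3 TPM in the other 5 TSC libraries. Most of the 242 TPM was Syna, which ran from 9.14 to 231 TPM over the TSC libraries. The next highest of these markers, Ascl2, reached 16.4 TPM.

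The members lie on 8 chromosomes of the mm10 genome (GRCm38). Pdk1 is at chr2:71873224-71903858 on the plus strand, Pdk2 at chr11:95026258-95041354 on the minus strand and Pdk3 at chrX:93764607-93832201 on the minus strand. Pdp1 is at chr4:11958184-11966452, Pdha1 at chrX:160122209-160138413, Pdhb at chr14:8165996-8173025 and Dlat at chr9:50634633-50659780, all on the minus strand. The carrier genes Mpc1, at chr17:8282904-8297661, and Mpc2, at chr1:165460637-165481214, are on the plus strand. In the GENCODE vM21 annotation, exons of Pdha1 overlap those of Map3k15 on the opposite strand over 603 bases (16.1% of its exonic bases), and exons of Mpc1 overlap those of 4930506C21Rik over 480 bases (23.1%). The strand setting of the counting is not given in the sources used here, so the levels of Pdha1 and Mpc1 are uncertain to that extent, and reads of Pdha1 and its paralog Pdha2 could have been split between the 2 genes.

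The promoters of Pdk1 and Pdk2 are shown because these were the members with a DE call. A gene was called DE (differentially expressed) when its fold change exceeded 1.5 and its p, adjusted by Benjamini-Hochberg over all tested genes, was no higher than 0.1. HIF1 is known to bind DNA at sites that hold ACGTG or GCGTG, and these letters were searched on both strands from 250 bases before to 10 bases after the transcription start in RefSeq (GRCm38.p6). Capitals mark each match, on either strand, and both sequences are given 5′ to 3′ in the direction of transcription. The Pdk1 window, chr2:71872974-71873233 on the plus strand, held GCGTG at positions -78 and -2 from the start. The Pdk2 window, chr11:95041362-95041621 on the minus strand, held 2 overlapping matches at -126 and -125, which are the 2 strands of the single palindrome CACGTG, also an E-box.
Pdk1: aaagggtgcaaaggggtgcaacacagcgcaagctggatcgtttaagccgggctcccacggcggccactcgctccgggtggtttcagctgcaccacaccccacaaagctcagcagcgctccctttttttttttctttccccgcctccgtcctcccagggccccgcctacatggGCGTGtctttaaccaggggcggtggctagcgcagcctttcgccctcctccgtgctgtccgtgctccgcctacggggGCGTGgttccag
Pdk2: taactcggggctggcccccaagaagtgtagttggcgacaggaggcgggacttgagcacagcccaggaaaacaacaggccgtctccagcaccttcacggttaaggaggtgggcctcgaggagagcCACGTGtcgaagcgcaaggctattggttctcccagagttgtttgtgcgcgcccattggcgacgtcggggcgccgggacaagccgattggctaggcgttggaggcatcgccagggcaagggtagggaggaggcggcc
Of the 8 members with a RefSeq window, 7 held at least 1 match, with 4 in Pdk3, 3 in Pdha1, 2 in Pdhb and 1 each in Mpc1 and Mpc2. Dlat had none of these letters in its window, and no window was listed for Pdp1. At least 1 match was present in 39.7% of all 32851 promoter windows of the same length, and at least 2 in 17.6%. A match is a description of letters, not of a bound site.

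Levels of different genes were set side by side per exon length, since the deposited TPM divide by the whole span of the gene with its introns, of which only 3.79% is exonic in Pdk3 and 54.5% in Pdp1. This scale assumes that reads were counted on exons, and the sources used here do not give the feature counted. On this scale the subunits of the complex led in every normoxic line. In ESCs Pdha1 stood at 307 ± 43.8 (SD, n = 2) exon-length TPM, against 158 ± 1.30 for TSCs and 244 ± 22.5 for XEN cells. In the same order of lines, Pdhb followed with 174 ± 9.84, 115 ± 14.3 and 104 ± 2.56, and Dlat with 91.9 ± 5.17, 76.3 ± 5.84 and 76.0 ± 4.10. The carrier genes stood far below, with mean exon-length TPM of 10.4 for Mpc1 and 5.29 for Mpc2 in ESCs. They were at 8.31 and 8.61 in normoxic TSCs, and at 9.03 and 14.5 in normoxic XEN cells.

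The order of the regulators was not the same in the 3 lines. In normoxic ESCs, Pdk1 (90.5 exon-length TPM) ranked beside Dlat, with overlapping libraries, and above Pdk3 (64.4), Pdp1 (7.54) and Pdk2 (5.70). In TSCs, Pdk3 (28.9) stood above Pdk1 (18.8), Pdk2 (12.1) and Pdp1 (4.96). XEN cells had Pdk3 (44.3) and Pdk2 (19.6) above Pdk1 (2.26) and Pdp1 (1.04), the lowest members of that line. Neighbours in these orders were apart in both libraries, except Dlat and Pdk1 in ESCs, Pdk2 and Mpc2 in ESCs and in XEN cells, and Mpc2 and Mpc1 in TSCs. Each cell type was normalized in a table of its own, so no test was made between lines.

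**Figure D1:**
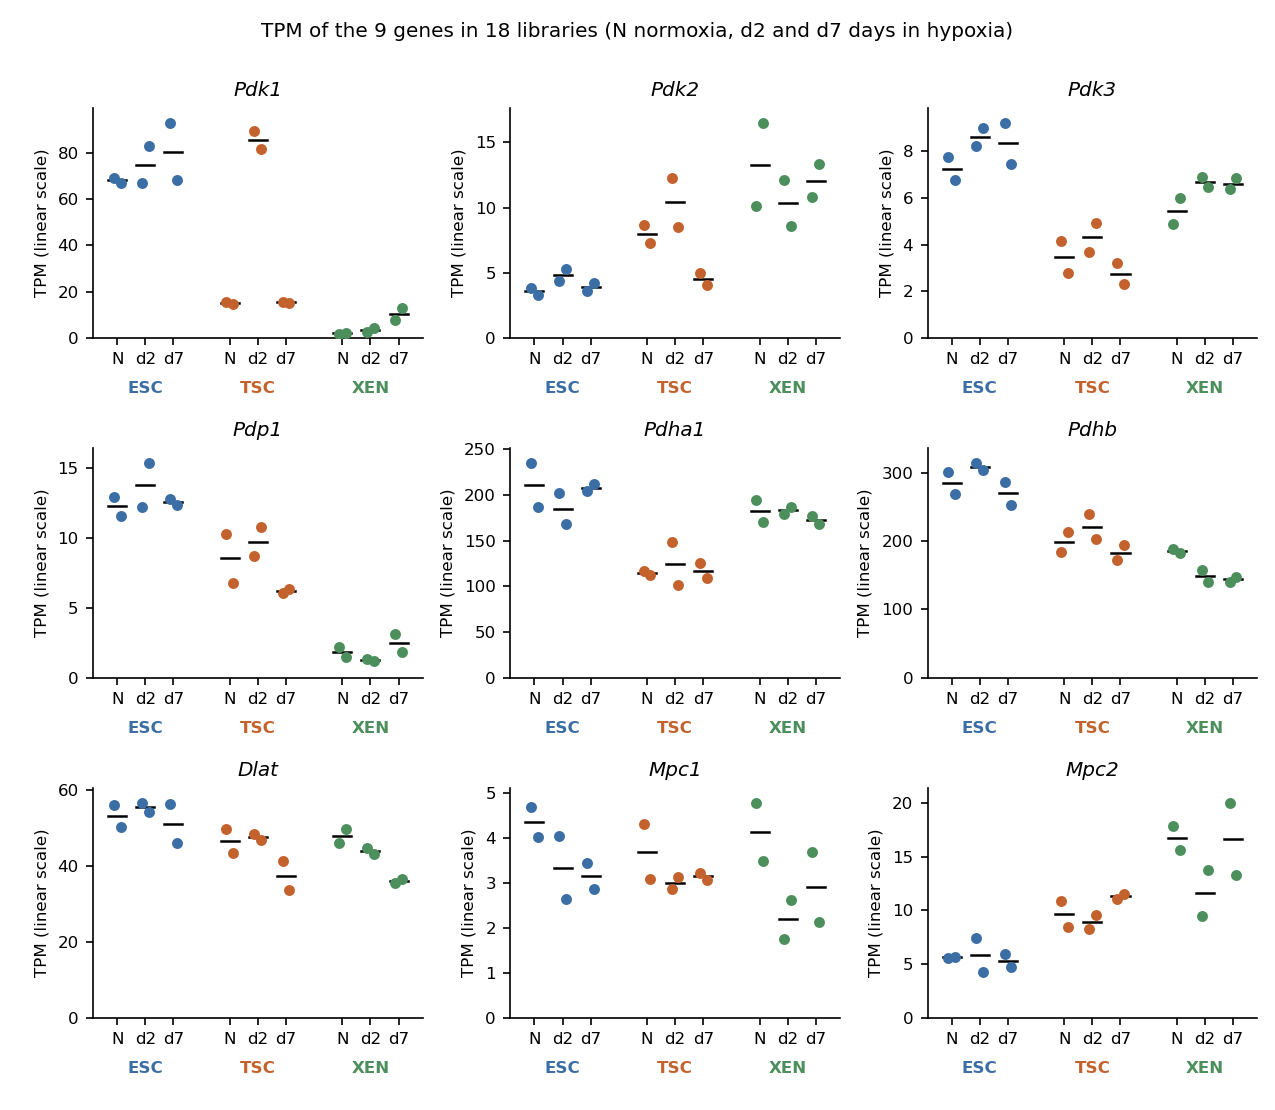
TPM of each gene (linear axis from 0) in the 18 libraries, grouped by cell type and by normoxia (N), day 2 (d2) and day 7 (d7) of hypoxia. Points are single libraries and bars are means of 2. Pdk1 is at 82.0 and 89.6 TPM in TSCs on day 2 and at 14.5 to 15.6 TPM in the other TSC libraries, while Pdha1 has no group in any line that stands apart from both of the others.

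Pdk1, the HIF1-responsive kinase, is described line by line. In TSCs it was at 15.5 and 14.5 TPM in normoxia, 89.6 and 82.0 TPM on day 2 and 15.6 and 15.2 TPM on day 7. Both acute libraries were far above all others, and the prolonged libraries lay at the normoxic level in TPM. Pdk1 was upregulated on day 2, with a log2 fold change of 2.47 (SE 0.19, 95% interval 2.03 to 2.91, 5.56-fold, limma adjusted p = 0.0191). From day 2 to day 7 it was downregulated, with a log2 fold change of -2.44 (SE 0.19, limma adjusted p = 0.00599). Between day 7 and normoxia it differed by 0.03 on the log2 scale, with a 95% interval of -0.41 to 0.47 (limma adjusted p = 0.958). Here and below, fold changes are on the scale of log2(TPM + 0.5), which understates changes of low genes. For a gene that does not differ, 2 groups of 2 libraries stand fully apart by chance with a probability of 0.333 (exact count of orders).

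The adjusted p of the Pdk1 rise in TSCs depended on which libraries shared the fit, and its size did not. The call was lost in a fit to the 4 libraries compared (adjusted p = 0.155) and without day 2 replicate 1 (adjusted p = 0.356) or replicate 2 (adjusted p = 0.112), or day 7 replicate 1 (adjusted p = 0.166) or replicate 2 (adjusted p = 0.168), all by limma, while the log2 fold change stayed between 2.41 and 2.54. The fall of Pdk1 from day 2 to day 7 lost the call without day 7 replicate 2 (-2.42, limma adjusted p = 0.114). The normoxic TSC libraries with 1842 and 259 TPM of fibroblast markers had 15.5 and 14.5 TPM of Pdk1, and the day 2 libraries with 195 and 946 TPM of them had 89.6 and 82.0 TPM. Without the normoxic replicate 1, which holds the most fibroblast marker RNA, the rise was 2.52. Without the normoxic replicate 2, which has the highest sum of differentiated trophoblast markers, mostly Syna, it was 2.43. The part of other cell types in the Pdk1 rise was not tested.

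In XEN cells, Pdk1 was at 1.56 and 2.16 TPM in normoxia, 2.54 and 4.33 TPM on day 2 and 7.50 and 13.1 TPM on day 7. These rest on 155 and 352 reads in normoxia and on 867 and 1045 reads on day 7. The groups did not overlap, and each later group lay above the one before. The log2 difference from normoxia was 0.71 (SE 0.35, adjusted p = 0.688) on day 2 and 2.15 (SE 0.35, 95% interval 1.33 to 2.98, adjusted p = 0.141) on day 7, both by limma, and neither passed the threshold. Without the normoxic replicate 2 the day 7 difference passed it (2.34, limma adjusted p = 0.0639).

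In ESCs, Pdk1 was at 69.4 and 67.2 TPM in normoxia, and was at 67.0 and 83.1 TPM on day 2 and 93.0 and 68.4 TPM on day 7. The groups overlapped. The log2 differences from normoxia were 0.13 on day 2 (95% interval -0.27 to 0.53) and 0.22 on day 7 (95% interval -0.18 to 0.62), with limma adjusted p = 0.987 and 0.897. The difference between these courses of Pdk1 was not tested across lines.

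Pdk2, the kinase isoform found in most tissues, was the other member with a DE call. In TSCs it was at 8.67 and 7.30 TPM in normoxia, 12.3 and 8.52 TPM on day 2 and 5.01 and 4.07 TPM on day 7, so that both prolonged libraries lay below all 4 others. It was downregulated from day 2 to day 7 by a log2 fold change of -1.10 (SE 0.27, 2.14-fold lower, limma adjusted p = 0.0579). Between day 7 and normoxia its log2 difference was -0.75 (SE 0.27, limma adjusted p = 0.404). The call from day 2 to day 7 was lost without day 2 replicate 1 (-0.85, adjusted p = 0.325), day 7 replicate 1 (-1.23, adjusted p = 0.127) or day 7 replicate 2 (-0.96, adjusted p = 0.255), all by limma.

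Over all genes, TSC values were shifted on this scale on day 7. The median log2 difference over all tested genes was -0.18 against normoxia and -0.24 against day 2, and the TSC marker sums were lowest on day 7, whose part in the results was not tested. Relative to the median of the same comparison, the change from day 2 to day 7 was -2.20 for Pdk1 and -0.86 for Pdk2. Against normoxia, day 7 differed by 0.21 for Pdk1 and by -0.57 for Pdk2 on that relative scale.

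Pdk2 had no DE call in the other lines. In XEN cells it was at 10.1 and 16.5 TPM in normoxia and at 8.58 to 13.3 TPM in hypoxia, with overlapping groups. In ESCs it was at 3.84 and 3.27 TPM in normoxia and 4.38 and 5.29 TPM on day 2, a log2 difference of 0.39 (limma adjusted p = 0.970), and at 3.59 and 4.24 TPM on day 7.

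Pdk3, a kinase isoform encoded on the X chromosome, had a higher mean on day 2 than in normoxia in each line without passing the test. For ESCs, TSCs and XEN cells the log2 differences were 0.24, 0.29 and 0.28, with limma adjusted p = 0.987, 0.713 and 0.760. In XEN cells the 4 hypoxic libraries, at 6.39 to 6.89 TPM, lay above the normoxic ones, at 4.90 and 5.98 TPM. In TSCs on day 7, Pdk3 was at 3.199 and 2.30 TPM, beside 4.15 and 2.76 TPM in normoxia.

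**Figure D2:**
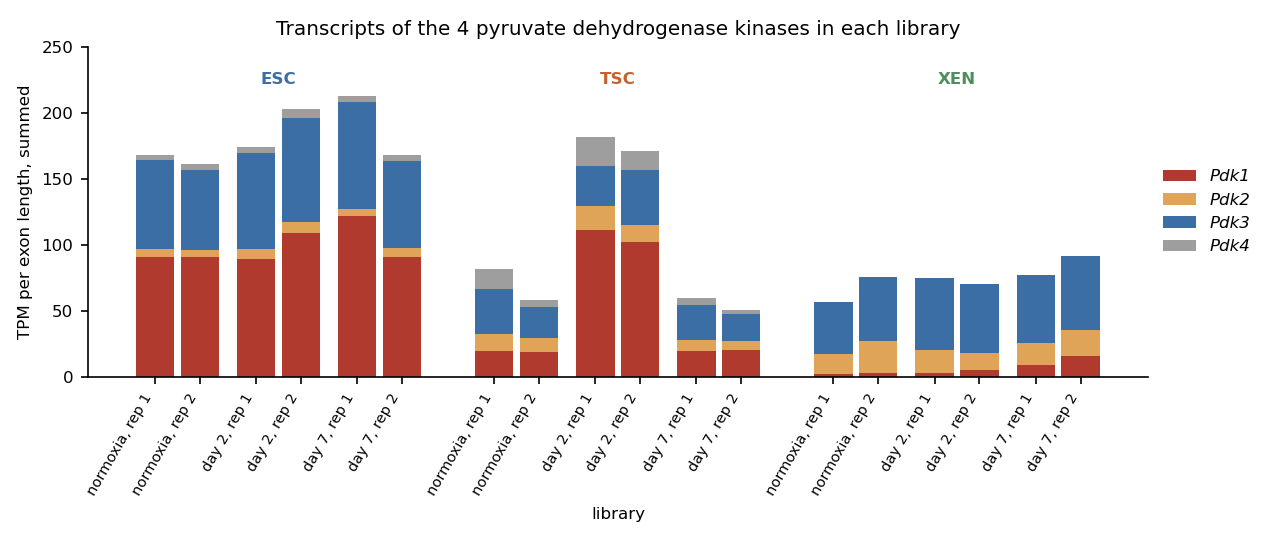
Stacked exon-length TPM (linear axis from 0) of Pdk1, Pdk2, Pdk3 and Pdk4 in each of the 18 libraries. Day 2 TSCs reach 182 and 171 in sum, of which Pdk1 is 61.0% and 59.9%, and Pdk4 is not listed in the XEN table.

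On the exon-length scale, which assumes that reads were counted on exons, the kinase transcripts had a leading gene of their own in ESCs and in XEN cells. Pdk1 made 51.3% to 57.2% of the summed exon-length TPM of the 4 kinase genes in all 6 ESC libraries, and Pdk3 made 37.8% to 42.2%. In XEN cells Pdk3 made 61.1% to 74.6% of the sum in every library. For XEN cells the Pdk1 share was 3.34% and 3.48% under normoxia, against 3.999% and 7.46% after 2 days and 11.8% and 17.4% after 7 days. In TSCs the Pdk1 share went from 23.5% and 31.5% in the normoxic libraries to 61.0% and 59.9% in those of day 2, and was 33.3% and 40.1% in those of day 7. On this scale, day 2 was the sole condition in which Pdk1 and not Pdk3 led the sum in TSCs.

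The summed kinase level was 182 and 171 exon-length TPM in acute TSC libraries, beside 81.9 and 58.4 in the normoxic and 59.4 and 50.3 in the prolonged ones. Against the summed phosphatase genes Pdp1 and Pdp2, it was 7.84 and 8.53 times as high in the acute libraries, 5.92 and 3.83 times in the normoxic and 4.401 and 4.85 times in the prolonged ones. Against Pdp1 alone the ratios were 36.4 and 27.3, 13.9 and 14.6, then 16.7 and 12.8 in the same order. Pdp2 was at 43.5 and 32.7 TPM in the acute TSC libraries, above the normoxic 18.9 and 26.2 TPM, without passing the test (0.74, limma adjusted p = 0.371). The ratio to both phosphatases was 6.43 to 8.43 in the ESC libraries and 3.46 to 5.29 in the XEN libraries. These ratios describe transcripts and say nothing of the kinase protein or of its activity.

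Pdp1, the phosphatase that reactivates the complex, had no DE call. It was at 11.5 to 15.3 TPM in ESCs, 6.03 to 10.7 TPM in TSCs and 1.23 to 3.14 TPM in XEN cells. In XEN cells it was at 2.16 and 1.503 TPM in normoxia, 1.34 and 1.23 TPM on day 2 and 3.14 and 1.86 TPM on day 7. Day 2 was the lowest group, and day 7 was 0.72 above it on the log2 scale (SE 0.28, limma adjusted p = 0.410), which did not pass the test. These values rest on 40 to 98 reads per library. In TSCs both day 7 libraries lay below the other 4, with a log2 difference of -0.41 from normoxia (limma adjusted p = 0.661), or -0.23 relative to the median of all genes.

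The E1 alpha subunit gene Pdha1 had no DE call. Its range was 168 to 235 TPM in ESCs, 101 to 148 TPM for TSCs and 168 to 195 TPM for XEN cells. On days 2 and 7 its log2 difference from normoxia was -0.18 and -0.01 in ESCs, 0.10 and 0.03 in TSCs, then 0.00 and -0.08 for XEN cells, and groups overlapped in all 6 comparisons. The 95% intervals reached from -0.53 to 0.62 over these comparisons.

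Pdhb, the E1 beta subunit gene, was lower in hypoxic than in normoxic XEN cells in every library. It was at 189 and 182 TPM in normoxia, 157 and 140.0 TPM on day 2 and 140.2 and 148 TPM on day 7. The log2 difference was -0.32 on day 2 (SE 0.14, adjusted p = 0.658) and -0.37 on day 7 (SE 0.14, adjusted p = 0.517), by limma, and neither passed the adjusted threshold. In ESCs the day 2 libraries, at 314 and 304 TPM, were just above the normoxic ones, at 300.3 and 269 TPM. TSCs had overlapping groups on both days, at 172 to 239 TPM.

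Dlat, the E2 core gene, was lowest in prolonged hypoxia in XEN cells. It was at 46.1 and 49.7 TPM in normoxia, 44.7 and 43.3 TPM on day 2 and 35.5 and 36.6 TPM on day 7, and the 3 groups did not overlap. The log2 difference from normoxia was -0.12 on day 2 (limma adjusted p = 0.837) and -0.40 on day 7 (SE 0.14, limma adjusted p = 0.497), under the fold threshold. In TSCs, Dlat was at 49.7 and 43.6 TPM in normoxia and 41.4 and 33.6 TPM on day 7, a log2 difference of -0.32 (limma adjusted p = 0.631), or -0.14 relative to the median of all genes. In ESCs its levels were 46.1 to 56.6 TPM, with overlapping groups.

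Neither carrier gene passed the test in any comparison. In XEN cells, Mpc1 was at 4.78 and 3.48 TPM in normoxia, 1.76 and 2.61 TPM on day 2 and 3.68 and 2.13 TPM on day 7. Both acute libraries lay below the normoxic ones, by -0.79 on the log2 scale (SE 0.31, 95% interval -1.53 to -0.05, limma adjusted p = 0.603). Its partner Mpc2 was at 17.9 and 15.7 TPM in normoxia, 9.44 and 13.8 TPM on day 2 and 20.02 and 13.3 TPM on day 7. Mpc2 on day 2 also lay below normoxia in both libraries, by -0.53 (SE 0.27, limma adjusted p = 0.690), and on day 7 it overlapped the normoxic level.

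In ESCs, Mpc1 was at 4.70 and 4.03 TPM in normoxia, 4.04 and 2.63 TPM on day 2 and 3.45 and 2.87 TPM on day 7. The day 7 libraries lay below the normoxic ones, by -0.41 on the log2 scale (95% interval -0.94 to 0.11, limma adjusted p = 0.756). Mpc2 in ESCs had overlapping groups, at 4.28 to 7.43 TPM. In TSCs, Mpc2 was at 10.9 and 8.48 TPM in normoxia and at 11.03 and 11.6 TPM on day 7, a log2 difference of 0.22 (limma adjusted p = 0.758), and 0.40 relative to the median of all genes. From day 2, at 8.29 and 9.59 TPM, to day 7 it differed by 0.32 (limma adjusted p = 0.410), and by 0.56 relative to that median. Mpc1 in TSCs stayed at 2.87 to 4.31 TPM.

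**Figure D3:**
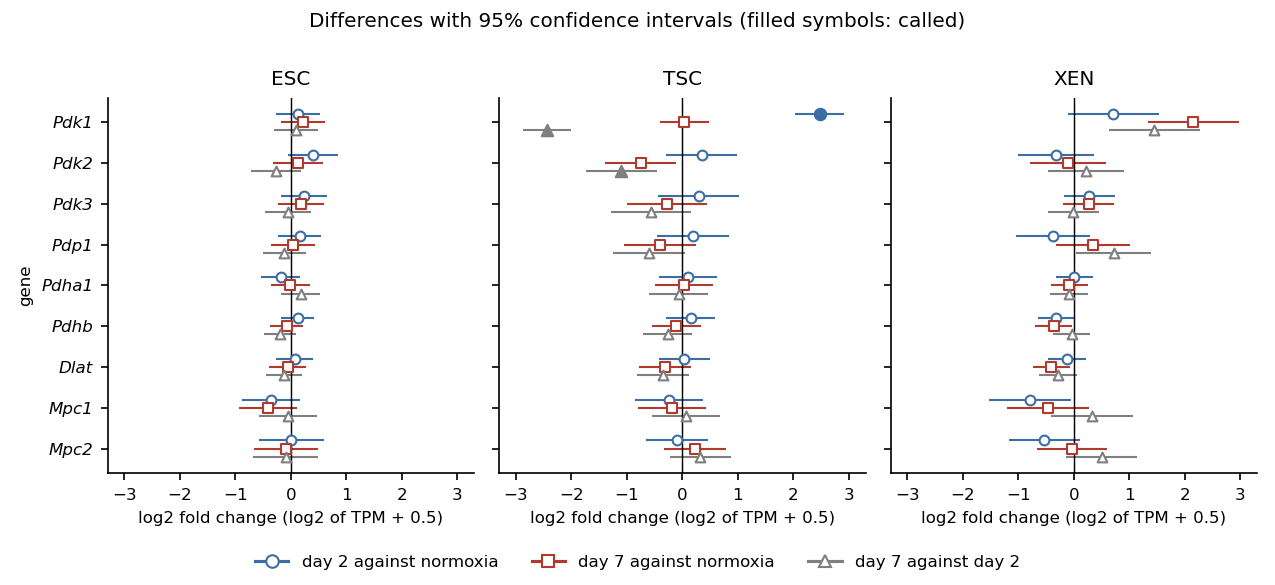
Log2 fold change of each gene with its 95% confidence interval in ESCs, TSCs and XEN cells, from limma fits to 6 libraries per line, for day 2 against normoxia, day 7 against normoxia and day 7 against day 2. Filled symbols are DE calls: Pdk1 at 2.47 and -2.44 and Pdk2 at -1.10, all in TSCs.

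At the same thresholds, the paper's edgeR test called far more genes against normoxia, in each line on both days, than limma did here. A member without a call is therefore not shown to be unchanged. In TSCs on day 2, 1 of 9 members was DE (Pdk1, higher), where 0.2% of all 12481 tested genes were. The same member was the only one at an unadjusted p under 0.05, where 13.1% of all genes were. With voom on the recovered reads, an alternative test, 1 of 9 was again DE (Pdk1, 0.268% of all genes). On day 7 against normoxia no member was DE in limma (0.385% of all genes) or voom (0.203%), and 1 of 9 was under 0.05 unadjusted (Pdk2, lower, 10.4% of all genes).

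From day 2 to day 7 in TSCs, 2 of 9 members were DE (Pdk1 and Pdk2, both lower), beside 16.2% of all genes. This share of members is close to that of the background, given their number. Under 0.05 unadjusted there were 2 of 9, beside 27.9% of all genes, and voom called the same 2, beside 15.6%. These calls rest on few libraries: without day 7 replicate 2, 0 of all genes and 0 of 9 members were DE, and without day 2 replicate 1 or day 7 replicate 1 there were 30 and 284 genes, with 1 member each. Of the 2019 DE genes in this comparison, 296 were higher, and with median-ratio scaling of the libraries 724 of 1706 were higher, with Pdk1 and Pdk2 lower in both.

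In XEN cells no member was DE in any limma fit to all 6 libraries without a block, and without normoxia replicate 2 there was 1 on day 7 against normoxia (Pdk1). On day 2 none of all genes were (0.0% in limma and 0.0% in voom), and 1 of 9 members was under 0.05 unadjusted (Mpc1, lower, 7.77% of all genes). On day 7 against normoxia 0.11% of all genes were DE in limma and 0.0558% in voom, and 3 of 9 members were under 0.05 unadjusted (Pdk1 higher, Pdhb and Dlat lower), beside 9.01% of all genes. From day 2 to day 7 the shares of all genes were 0.0367% and 0.0186%, and 2 of 9 members were under 0.05 unadjusted (Pdk1 and Pdp1, higher), beside 11.9%.

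In ESCs no member was DE, and none was under 0.05 unadjusted, in any of the 3 comparisons. The shares of all genes that were DE on day 2 were 0.0% in limma and 0.033% in voom, with 5.05% under 0.05 unadjusted. Without day 2 replicate 1, 493 genes were DE on day 2, none of them a member, and 2 of 9 members were under 0.05 unadjusted. On day 7 against normoxia they were 0.758%, 0.892% and 8.04%, and from day 2 to day 7 they were 0.179%, 0.206% and 4.26%, in the same order. The ESC comparisons with normoxia share their normoxic libraries, as do those of the other lines. No normoxic group was matched to each day in these libraries, so time in hypoxia and time in culture cannot be told apart.

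Each of the 20 DE calls of genes from the lists below was lost when at least 1 of the 6 libraries was left out. Around the members, the other subunits and regulators of the complex (Pdhx, Dld, Pdk4, Pdp2, Pdpr and Pdha2) were read from a fixed list. Pdk4, a kinase known for its rise in starvation, was at 13.1 and 4.52 TPM in normoxic TSCs, 18.8 and 12.2 TPM on day 2 and 4.05 and 2.44 TPM on day 7. It was downregulated from day 2 to day 7 (-2.10, limma adjusted p = 0.0514), as was Pdp2, a phosphatase like Pdp1 (-1.02, limma adjusted p = 0.0856), which makes 2 of 5 tested genes of this list DE, both lower, beside 16.2% of all genes. Pdp2 lost its call with voom and with median-ratio scaling, and Pdk4 kept it in both. The median of the list there was -0.94, beside -0.24 over all genes.

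Pdha2, a retrogene copy of Pdha1 known from the testis, was listed in ESCs only. It was at 2.16 and 3.24 TPM in normoxia, 3.995 and 12.2 TPM on day 2 and 19.8 and 11.6 TPM on day 7. It was upregulated on day 7 (2.31, SE 0.45, limma adjusted p = 0.0969), the 1 DE gene of 6 tested in this list, beside 0.758% of all genes, and its call was lost with voom and with median-ratio scaling. In XEN cells, Dld, the E3 subunit that the complex shares with other dehydrogenases, differed by -0.60 on day 7 (SE 0.20, limma adjusted p = 0.478), and 0 of 4 listed genes tested there were DE in limma or voom, with 1 of 4 under 0.05 unadjusted in each.

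The lipoylation list holds the enzymes and iron-sulfur proteins that put lipoic acid on DLAT and other E2 proteins. None of its 9 genes was DE in any comparison in limma or voom, and at most 1 (3 in voom) had an unadjusted p under 0.05. In XEN cells on day 2, 0 of 9 were higher than in normoxia, with a median of -0.22 beside -0.01 over all genes, and the largest differences were those of Glrx5 (-0.52) and Isca2 (-0.51). In TSCs on day 2 the largest were Bola3 (-0.75) and Nfu1 (-0.35).

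The TCA cycle, which takes up the acetyl-CoA, was read from 14 enzyme genes. In XEN cells 1 of 14 was higher than in normoxia on day 2 and 1 of 14 on day 7, with medians of -0.21 and -0.27 beside -0.01 and -0.03 over all genes. None was DE in limma or voom, and 1 of 14 was under 0.05 unadjusted in limma on each day (4 and 1 in voom). With median-ratio scaling 2 of 14 were higher on each day. In ESCs the medians were -0.04 and -0.01. In TSCs they were 0.10 on day 2 and -0.20 on day 7, beside 0.07 and -0.18 over all genes, and Suclg2, a subunit of succinyl-CoA ligase, was downregulated from day 2 to day 7 (-1.16, limma adjusted p = 0.0584), a call lost with median-ratio scaling.

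**Figure D4:**
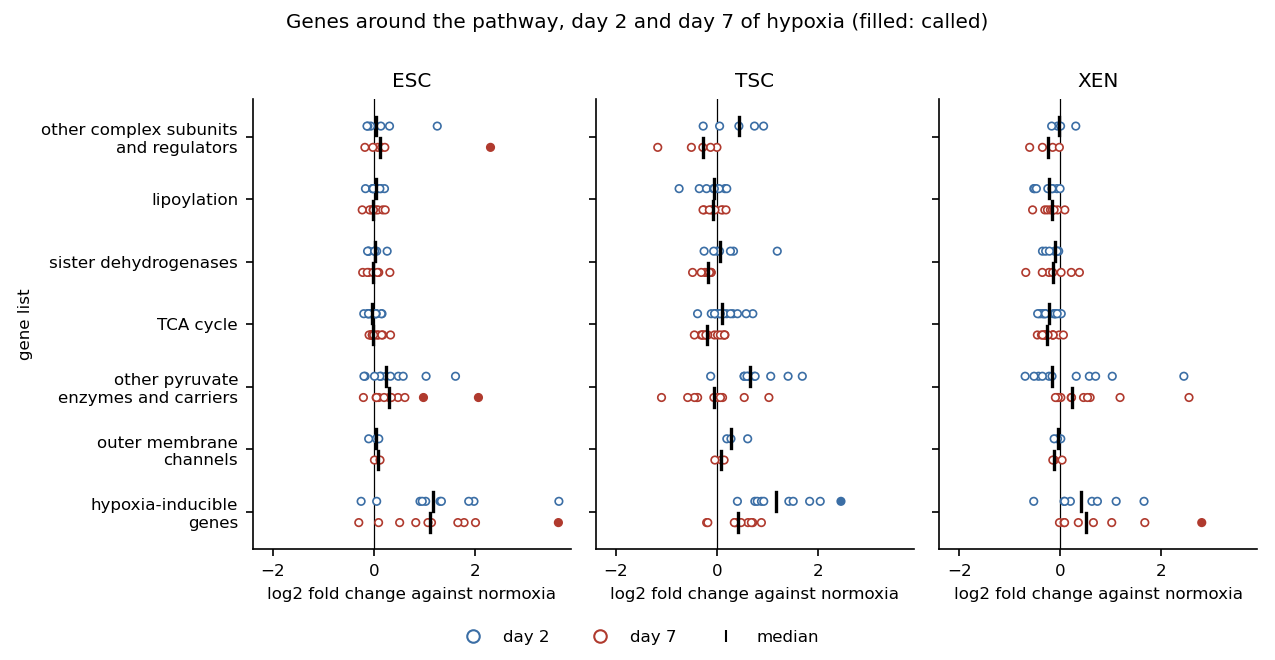
Log2 fold change against normoxia of the genes of 7 lists around the pathway, for day 2 and day 7 of hypoxia in ESCs, TSCs and XEN cells. Each point is a gene, filled where DE, and bars are medians. On days 2 and 7 hypoxia-inducible genes have medians of 1.17 and 1.11 (ESCs), 1.18 and 0.43 (TSCs), then 0.42 and 0.51 (XEN cells).

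Genes that make, use or export pyruvate elsewhere in the cell form a list of 13, of which 11 were tested in each line. In ESCs on day 7, 2 of 11 were upregulated, beside 0.758% of all genes DE: Ldha, the lactate dehydrogenase subunit that turns pyruvate into lactate, and Slc16a3, which exports lactate. Ldha was at 1011 and 1080.0 TPM in normoxia, 1948 and 2362 TPM on day 2 and 2422 and 1767 TPM on day 7 (0.99 on day 7, limma adjusted p = 0.0813), and its call was lost with median-ratio scaling (adjusted p = 0.149). Slc16a3 rose on day 7 by 2.07 on the log2 scale (limma adjusted p = 0.0161).

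In TSCs on day 2, 10 of 11 genes of this list were higher than in normoxia, with a median of 0.65 beside 0.07 over all genes. By limma 7 of 11 were under 0.05 unadjusted there, beside 13.1% of all genes. None was DE against normoxia on day 2 or day 7 in limma or voom. From day 2 to day 7, all 11 differences were below 0 and 4 genes were downregulated, beside 16.2% of all genes DE. These were Ldhb (-1.64), Pcx (-2.09), Me2 (-0.63) and Pck2 (-1.34), with limma adjusted p = 0.0284, 0.0322, 0.0931 and 0.0327. Me2 lost its call with median-ratio scaling and with voom, and the other 3 kept it in both. Pcx encodes pyruvate carboxylase, the other route by which pyruvate carbon enters the TCA cycle, and was at 10.2 and 4.99 TPM on day 2 and 1.56 and 1.075 TPM on day 7. The median of the list was -0.63, beside -0.24 over all genes. None of the 11 was DE in XEN cells against normoxia in limma on the deposited scale or in voom, with 6 under 0.05 unadjusted on day 2 and 1 on day 7 in limma (5 and 2 in voom), and Slc16a3 differed from normoxia by 2.45 on day 2 and 2.55 on day 7 (limma adjusted p = 0.287 and 0.103). On day 7 it was DE with median-ratio scaling (limma adjusted p = 0.0956) and with exon lengths (limma adjusted p = 0.0982).

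Of the branched-chain and 2-oxoglutarate dehydrogenases, the sister complexes of pyruvate dehydrogenase, and their regulators, 7 genes were tested. Ppm1k, the phosphatase of the branched-chain complex, was downregulated in TSCs from day 2 to day 7 (-1.68, limma adjusted p = 0.0291), and no other gene of the list was DE in any comparison. Ppm1k was at 2.34 and 1.79 TPM in normoxic TSCs, 6.80 and 4.17 TPM on day 2 and 1.36 and 1.29 TPM on day 7. Of the outer membrane channels Vdac1, Vdac2 and Vdac3, none was DE in limma or voom, and 1 of 3 was under 0.05 unadjusted in TSCs on day 2 by both. The largest difference among them was that of Vdac1 in TSCs on day 2 (0.61, limma adjusted p = 0.231).

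Hypoxia-inducible genes outside the pathway were read beside Pdk1 as a measure of the response to low oxygen. In TSCs on day 2, 10 of 10 were higher than in normoxia with a median of 1.18, and Bnip3, a mitophagy receptor, was upregulated on day 2, from 15.7 and 16.2 TPM to 86.5 and 93.2 TPM (2.46, limma adjusted p = 0.0191). Its call, like that of Pdk1, was lost in the fit to the 4 libraries compared and without any of the day 2 or day 7 libraries. On day 7 Bnip3 was at 25.0 and 26.8 TPM, the median of the list was 0.43 and none of the list was DE against normoxia in limma or voom, with 3 and 4 under 0.05 unadjusted. From day 2 to day 7, 5 of 10 were downregulated: Bnip3 (-1.77), Ankrd37 (-1.69), Kdm3a (-1.06), Egln3 (-0.96) and Car9 (-0.96), beside 16.2% of all genes. With voom 3 of 10 were DE, and with median-ratio scaling 1 of 10 (Bnip3). Of the 10 genes, 1 was higher on day 7 than on day 2.

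In XEN cells, Egln3, a prolyl hydroxylase induced by HIF1, was at 11.8 and 14.4 TPM in normoxia, 21.2 and 23.1 TPM on day 2 and 80.6 and 110.2 TPM on day 7. It was upregulated on day 7 (2.81, limma adjusted p = 0.0119) and was higher on day 7 than on day 2 (2.07, limma adjusted p = 0.0870). The call against normoxia was lost in the fit to the 4 libraries compared. From day 2 to day 7, 4 of 8 genes of the list were higher (6 of 8 with median-ratio scaling), the median difference was 0.01, and Egln3 was the 1 DE gene. Of the 8 genes tested there, 7 were higher than in normoxia on each day. In ESCs 9 of 10 were higher than in normoxia on each day, and Ndufa4l2, a HIF1-induced mitochondrial protein, was upregulated on day 7 (3.66, limma adjusted p = 0.0813; its call was lost with voom and with median-ratio scaling), while Pdk1 differed by 0.22 on that day.

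How far the members varied together was read from the correlation of log2(TPM + 0.5), centred on the mean of each line, over the 18 libraries. These libraries share lines, conditions and scaling, so the values are descriptions. Mpc1 and Mpc2, which form a single carrier, had the highest correlation between members (r = 0.79). Pdk1 and Pdk3 followed (r = 0.61), then Pdhb and Dlat (r = 0.59), while Pdk1 had r = 0.01 with Pdha1 and r = -0.08 with Dlat.

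Among 10080 other genes tested in all 3 lines, those most like Pdk1 were Vldlr, Tmco6 and Kank3 (r = 0.93, 0.93 and 0.93). The closest to Pdk2 were Akap8l, Sp4 and Psrc1 (r = 0.93, 0.91 and 0.90), and to Pdk3 they were Fbxo10, Ppme1 and Pik3ca (r = 0.89, 0.88 and 0.87). Pdp1 was most like Trpm4, B4galt2 and Shld2 (r = 0.90, 0.86 and 0.86). The values were lowest for Pdha1, with Heatr6, Kctd9 and Ap2m1 at r = 0.79, 0.78 and 0.78. For Pdhb they were Lyplal1, Galk2 and Rpp30 (r = 0.83, 0.82 and 0.81), and for Dlat they were Cry1, Rhot1 and Atl2 (r = 0.91, 0.86 and 0.86). Mpc1 was most like Med22, Spns1 and Hgh1 (r = 0.89, 0.88 and 0.83), and Mpc2 most like Smdt1, Tmem208 and Drg1 (r = 0.90, 0.90 and 0.90).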

How the data were processed

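Bulk RNA-seq of 18 libraries was analysed from the TPM values the authors deposited, in 1 table per cell type. Per the methods and the submitters' processing notes, reads were trimmed with cutadapt 2.4, aligned to mm10 with STAR 2.7.5a and counted with featureCounts, and protein-coding genes over 0.4 CPM in at least 2 of 6 libraries were kept. Columns named day 0 were taken as normoxia. The TPM sum to 1000000 per library. Multiplied by gene span (GENCODE vM21), 98.7% to 98.9% of values came out as whole reads (within 0.05), which gave the depth and exon-length TPM.

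Genes with TPM over 0.4 in at least 2 of 6 libraries were fitted with limma 3.58.1 (R 4.3.3) on log2(TPM + 0.5), with a mean-variance trend, to all 6 libraries of a cell type, without a block. The fit was also run on simulated reads, drawn independently for each gene and without library-wide shifts. That run says nothing of the dependence on single libraries described here. The edgeR test on counts used in the paper was not run. Tables were normalized separately, so tests stayed within them. No source says how the replicates were separated, so p-values measure the spread between these samples. Alternatives changed the pseudocount, filter, scaling, trend, threshold, gene length, libraries fitted or block, or used voom on recovered reads. The members, lists and rules were chosen with earlier results of these data known. Named genes were the members, DE genes of the lists (otherwise up to 2 with the largest change against normoxia) and the 3 most correlated with each member.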

Additional observations from a re-analysis of the deposited data

Results flagged for a closer look

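Pdhb, the gene of the E1 beta subunit, differed from normoxia in opposite directions on day 2 in 2 lines. In ESCs both day 2 libraries lay above both normoxic ones, by 0.12 on the log2 scale, and in XEN cells both lay below, by -0.32. The difference between the lines was not tested, because each cell type was normalized in its own table, and neither value passed the threshold (limma adjusted p = 0.987 and 0.658). In each line, 2 libraries stand apart from 2 others with a chance probability of 0.333 (exact count of orders). The flag was sought over all 9 members and both days.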

How the results depend on the processing

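The count of DE members was the same under most alternatives. In TSCs on day 2 it was 0 in place of 1 in the fit to the 4 libraries compared, and 0 to 1 when a library was left out. From day 2 to day 7 it was 1 in place of 2 at an adjusted p of 0.05, and 0 to 2 when a library was left out. In XEN cells on day 7 against normoxia it was 0 to 1 when a library was left out. No DE call changed direction. Of 486 differences of single members with a library left out, 8 lost and 1 gained the call, and of 891 under other settings, 2 lost and 1 gained it. Another 43 and 16 uncalled differences changed sign, the largest being those of Pdk2 in XEN cells on day 2 (-0.33, range -0.66 to 0.01 with a library left out) and Mpc1 in XEN cells from day 2 to day 7 (0.32, range -0.01 to 0.66).

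Replicate numbers are shared by the groups, but no source says that they mark a batch. Over the 9 pairs of groups, libraries with the same number deviated from their groups with correlations of -0.46 to 0.27. With the replicate number as a block, 1 member (Pdk1) was DE in XEN cells on day 7 against normoxia in place of 0 (log2 difference 2.15, limma adjusted p = 0.0437), and no other call of a member changed.

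Counts of DE genes over all genes moved by more than 1.5 times under several settings. With the block they were 18 in place of 93 (ESC day 7 against normoxia), 6 in place of 22 (ESC day 7 against day 2), 3 in place of 25 (TSC day 2), 13 in place of 48 (TSC day 7 against normoxia) and 43 in place of 12 (XEN day 7 against normoxia). In the fit to the 4 libraries compared, the first 3 of these were 320, 6 and 0, XEN day 7 against normoxia had 1, and XEN day 7 against day 2 had 37 in place of 4. At an adjusted p of 0.05 they were 38, 14, 6 and 12 for the first 4 of these comparisons, 922 in place of 2019 for TSC day 7 against day 2 and 2 in place of 4 for XEN day 7 against day 2. Without the filter, ESC day 7 against day 2 had 14, TSC day 2 had 11, TSC day 7 against normoxia had 13 and XEN day 7 against day 2 had 2. A filter at TPM over 1 gave 14 for ESC day 7 against day 2, as did median-ratio scaling, which gave 15 for TSC day 2. Voom gave 4 in place of 0 for ESC day 2, 25 for TSC day 7 against normoxia, 6 for XEN day 7 against normoxia and 2 for XEN day 7 against day 2. Exon lengths gave 79 for TSC day 7 against normoxia, and a fit without trend 19 and 2 for the XEN day 7 comparisons. With a library left out, the count ranged from 0 to 493 for ESC day 2 (highest without day 2 replicate 1), 8 to 322 for ESC day 7 against normoxia (without normoxia replicate 2, and without day 2 replicate 1), 0 to 192 for ESC day 7 against day 2 (without either day 7 library, and without day 2 replicate 1) and 0 to 50 for TSC day 2 (without any day 2 or day 7 library, and without normoxia replicate 2). It ranged from 0 to 185 for TSC day 7 against normoxia (without either day 7 library, and without normoxia replicate 2) and 0 to 2215 for TSC day 7 against day 2 (without day 7 replicate 2, and without normoxia replicate 1). For XEN cells it ranged from 0 to 61 on day 2 (highest without normoxia replicate 1), 1 to 195 for day 7 against normoxia (without either day 2 library, and without normoxia replicate 2) and 0 to 83 for day 7 against day 2 (without either day 2 library, and without day 7 replicate 2).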
